A study of Mus musculus with 22 samples.

Results

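The 7 genes described here encode proteins of the fat cell, and they were examined in the chromatin of a bone-forming cell line. They are Pparg, Cebpa, Fabp4, Adipoq, Lpl, Plin1 and Cd36. Every region of 22 deposited lists whose centre lay within 100 kb of an annotated start of any of these genes was taken, which gave 476 of 360354 regions. Of these, 153 came from the 12 lists of transcription factor sites and 323 from the 10 lists of histone mark regions. The lists come from chromatin immunoprecipitation sequencing (ChIP-seq) of MC3T3-E1, a mouse pre-osteoblastic line that is 1 cell line and no bone tissue. Cells were either left undifferentiated or kept for 15 days with ascorbic acid and glycerol-2-phosphate (differentiated), and both were treated for 3 h before fixation. Treatment was 100 nM calcitriol (1,25-dihydroxyvitamin D3, the hormonal form of vitamin D) or its ethanol vehicle, in cells of passages 5 to 12. Each combination of antibody, state and treatment is represented by 1 list. The vitamin D receptor (VDR) and the retinoid X receptor (RXR) have lists for both treatments, and for the other antibodies the calcitriol lists were analysed here.

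Adipocytes and osteoblasts arise from shared mesenchymal progenitors. In adipogenesis, C/EBPβ acts early and is followed by PPARγ (from Pparg) and C/EBPα (from Cebpa), which activate each other and most fat cell genes. PPARγ and VDR are nuclear receptors that bind DNA as heterodimers with RXR, and RUNX2 is the transcription factor required for the osteoblast lineage. Among the other genes, Fabp4 encodes a cytoplasmic fatty acid carrier, Adipoq the hormone adiponectin, Lpl the lipase that frees fatty acids from circulating triglycerides, Plin1 a coat protein of lipid droplets, and Cd36 a fatty acid uptake receptor. H3K4me1 and histone acetylation mark enhancers, H3K4me3 marks active promoters and H3K36me3 the bodies of transcribed genes.

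The region names were read as peaks merged over the authors' replicates. No list per replicate was analysed, so no spread over replicates can be given. Counts are set beside the same count over all 22208 protein-coding genes. No test between the lists was possible. The lists differ in length: the VDR list held 7007 sites in undifferentiated and 873 in differentiated cells with calcitriol, against 16562 to 17954 for C/EBPβ and 7591 to 8126 for RXR. The RUNX2 list was also shorter after differentiation, with 12023 sites in undifferentiated and 7920 in differentiated cells. Sequencing depth is unknown, so its part in these lengths was not tested. Differentiated cultures were also homogenized and spun through sucrose, so preparation and differentiation cannot be told apart. In such bulk cultures, a site bound in fewer cells and a site bound more weakly in every cell cannot be told apart either. Of 12 bone genes, 7 had H3K4me3 within 1 kb of a start in each state, as did 3 of 10 chondrocyte genes. Over all genes the share was 35.9% in undifferentiated and 43.3% in differentiated cells.

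Overlapping sites of the 12 factor lists were merged into 65 elements, named by gene and distance from its most 5′ start (minus is upstream). The 8 elements below are examples and no sample of the 65: they include all 3 with a nuclear receptor repeat, and the other 5 carried factors in both states and lie near a start of the gene or were in several lists. Each is the centre of the element, as wide as a deposited factor site, on the plus strand of mm9. Capitals mark matches to motifs searched on both strands: the C/EBP motif TTGCNNAA, the RUNX motif TGTGGT, and direct repeats of the nuclear receptor half-site with 3 bases (DR3, the VDR-RXR type) or 1 base (DR1, the PPARγ-RXR type) between them, with at most 1 mismatch. A match on the minus strand appears as its reverse complement. The positions are, in order, chr6:115266966-115267166 (intergenic), chr7:35904046-35904246 (intergenic, ending before the Cebpa start), chr7:35918914-35919114 (intergenic), chr6:115371084-115371284 (intron of Pparg, 900 bp before its second start), chr16:23144494-23144694 (intergenic), chr8:71477911-71478111 (intergenic), chr3:10258308-10258508 (intron of Fabp12) and chr5:17252410-17252610 (intergenic).
Pparg -44.2 kb: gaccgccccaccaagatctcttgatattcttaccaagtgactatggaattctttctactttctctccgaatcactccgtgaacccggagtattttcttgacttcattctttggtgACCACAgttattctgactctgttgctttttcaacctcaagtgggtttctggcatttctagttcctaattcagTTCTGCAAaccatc
Cebpa -0.2 kb: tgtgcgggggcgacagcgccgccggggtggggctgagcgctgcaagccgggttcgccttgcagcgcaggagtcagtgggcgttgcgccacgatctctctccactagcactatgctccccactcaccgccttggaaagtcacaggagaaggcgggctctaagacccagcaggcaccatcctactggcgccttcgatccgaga
Cebpa +14.7 kb: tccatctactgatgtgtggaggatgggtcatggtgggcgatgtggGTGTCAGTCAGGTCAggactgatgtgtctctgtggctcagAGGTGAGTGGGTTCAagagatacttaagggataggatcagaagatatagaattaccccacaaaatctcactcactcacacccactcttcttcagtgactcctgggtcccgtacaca
Pparg +59.9 kb: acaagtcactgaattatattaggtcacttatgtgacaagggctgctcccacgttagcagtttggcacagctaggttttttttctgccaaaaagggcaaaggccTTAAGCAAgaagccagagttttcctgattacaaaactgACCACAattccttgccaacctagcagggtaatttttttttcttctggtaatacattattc
Adipoq -2.0 kb: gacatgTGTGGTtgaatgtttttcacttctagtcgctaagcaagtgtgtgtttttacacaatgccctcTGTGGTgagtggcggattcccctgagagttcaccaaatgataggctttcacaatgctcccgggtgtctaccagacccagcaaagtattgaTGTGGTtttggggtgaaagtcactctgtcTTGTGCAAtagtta
Lpl +73.6 kb: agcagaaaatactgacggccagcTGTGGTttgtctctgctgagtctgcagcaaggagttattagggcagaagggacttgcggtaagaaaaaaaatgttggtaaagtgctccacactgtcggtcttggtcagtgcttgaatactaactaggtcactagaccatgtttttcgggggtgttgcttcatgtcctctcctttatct
Fabp4 -49.8 kb: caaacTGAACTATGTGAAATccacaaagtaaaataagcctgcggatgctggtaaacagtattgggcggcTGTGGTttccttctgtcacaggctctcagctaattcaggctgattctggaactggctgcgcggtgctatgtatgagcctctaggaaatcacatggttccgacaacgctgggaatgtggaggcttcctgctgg
Cd36 +142.3 kb: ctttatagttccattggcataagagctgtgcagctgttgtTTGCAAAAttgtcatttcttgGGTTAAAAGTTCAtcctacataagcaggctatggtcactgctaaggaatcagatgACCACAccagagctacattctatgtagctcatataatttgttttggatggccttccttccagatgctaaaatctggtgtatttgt

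VDR, the receptor for calcitriol, was found near 5 of the 7 genes in undifferentiated cells with calcitriol, where 40.9% of all genes had a site within 100 kb. Pparg, Cebpa and Adipoq had 2 sites each, Lpl and Cd36 had 1 each, and no site was called near Fabp4 or Plin1. Both Pparg sites and both Cebpa sites had the named gene as their nearest start. The other 4 lay nearest to Eif4a2, St6gal1, Ints10 and Sema3c. With vehicle, 1 site was called, at the Eif4a2 promoter in the Adipoq window, and 15.7% of all genes had a site. Thus 7 of the 8 sites (87.5%, exact 95% interval 47.3 to 99.7) were absent from the vehicle list, as were 88.8% of VDR sites in the whole list.

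In differentiated cells no VDR site was called near any of the 7 genes, with calcitriol or with vehicle, where 12.1% and 6.15% of all genes had a site. The 5 genes with a VDR site in undifferentiated cells therefore had none after differentiation, as did 70.9% of all genes with such a site. Of the 8 sites, 0 were called again, which allows a share of up to 37.5%, and 11.3% of the whole list was. Other factors were still called in differentiated cells at 5 of the 8 elements that had held VDR. The same share over all elements with VDR is not given here, so 5 of 8 has no comparison. The 3 elements with no site left were those of Pparg 101.9 kb downstream, Cebpa 14.7 kb downstream and Adipoq 80.1 kb downstream.

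RXR overlapped 7 of the 8 undifferentiated VDR sites (87.5%, 47.3 to 99.7), beside 60% over the whole VDR list. RUNX2 also overlapped 7 of 8, beside 54%, and C/EBPβ overlapped 2 of 8 (25%, 3.19 to 65.1), beside 44.1%. With 8 sites the intervals are wide, and each contains the share of the whole list. The site without RXR was that at St6gal1, and the site without RUNX2 was that 14.7 kb downstream of Cebpa.

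RXR, the partner of both VDR and PPARγ, was near 6 of the 7 genes with vehicle (44.3% of all genes) and 5 with calcitriol (43.9%) in undifferentiated cells. With calcitriol, Cebpa had 4 sites, Adipoq and Cd36 3 each, and Pparg and Lpl 2 each, while Fabp4 and Plin1 had none. The vehicle counts were 3 for Adipoq, 2 each for Pparg, Cebpa, Lpl and Cd36, and 1 for Fabp4. Of the 14 calcitriol sites, 8 (57.1%, 28.9 to 82.3) were also in the vehicle list, beside 69.3% of the whole list. Among the sites called with calcitriol and absent with vehicle were those at 14.7 kb downstream of Cebpa and 101.9 kb downstream of Pparg, where VDR was called as well. Others absent with vehicle had no VDR, at 84.0 kb upstream of Cebpa, 2.0 kb upstream of Adipoq and 141.7 kb downstream of the first Cd36 start. Of the 14 calcitriol sites, 7 (50%, 23 to 77) overlapped VDR, beside 55.2% of the whole list.

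After differentiation, RXR was near 5 genes with vehicle (33.6% of all genes) and 6 with calcitriol (43.8%). The whole lists held 4815 and 8126 sites. The calcitriol list held 14 sites again: 3 each for Pparg, Fabp4 and Lpl, 2 each for Cebpa and Cd36, 1 for Adipoq and none for Plin1. The vehicle list held 6, namely 2 for Cebpa and 1 each for Pparg, Fabp4, Lpl and Cd36, and all 6 were also in the calcitriol list (88.6% over the whole list). With this window the calcitriol lists of both states held 14 sites, whereas within 50 kb they held 8 and 4 and by nearest start 7 and 5. Of the 14 undifferentiated sites, 7 (50%, 23 to 77) overlapped between them, beside 61.6% of the whole undifferentiated list. None of the 14 differentiated RXR sites overlapped VDR, which allows up to 21.4%, where 7.09% of the whole list did.

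C/EBPβ, the early adipogenic factor, was near all 7 genes in both states, where 65.9% of all genes had a site in undifferentiated and 61.1% in differentiated cells. Within 50 kb it was near 5 of the 7 genes in each state, and with 1 start per gene near 6. In undifferentiated cells there were 35 sites: 8 each for Pparg and Cebpa, 5 each for Fabp4 and Adipoq, 4 for Plin1, 3 for Cd36 and 2 for Lpl. The median was 5 per gene, beside 1 over all genes, and 4.67% of all genes had as many as 8. In differentiated cells there were 31: 9 for Pparg, 6 for Cebpa, 5 for Fabp4, 4 each for Adipoq and Plin1, 2 for Lpl and 1 for Cd36. The 9 sites of Pparg were reached by 2.35% of all genes and the 6 of Cebpa by 7.79%. Windows differ in width, with 261 kb for Pparg and 200 kb for Cebpa, and these shares do not allow for it. Of the undifferentiated sites 26 (74.3%, 56.7 to 87.5) were called again, beside 64.7% of the whole list, and of the differentiated sites 83.9% (66.3 to 94.5) had been called before, beside 70.1%. Each interval contains the share of its whole list.

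RUNX2, the osteoblast factor, was near all 7 genes in undifferentiated cells (59.6% of all genes) and 6 in differentiated cells (46.5%). The 19 undifferentiated sites comprised 6 for Pparg, 5 for Adipoq, 3 for Fabp4, 2 for Cebpa and 1 each for Lpl, Plin1 and Cd36. Pparg, with 6, had a count reached by 7.5% of all genes. In differentiated cells 13 sites were called: 3 each for Pparg and Cebpa, 2 each for Fabp4, Adipoq and Lpl, 1 for Plin1 and none for Cd36. The difference between the states depends on the window. Within 50 kb RUNX2 had 10 sites in each state and by nearest start 7 in each, whereas within 200 kb it had 26 and 16. Of the 19, 7 (36.8%, 16.3 to 61.6) were called again, beside 43.1% of the whole list. The median per gene was 2 in both states, beside 1 and 0 over all genes.

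**Figure D1:**
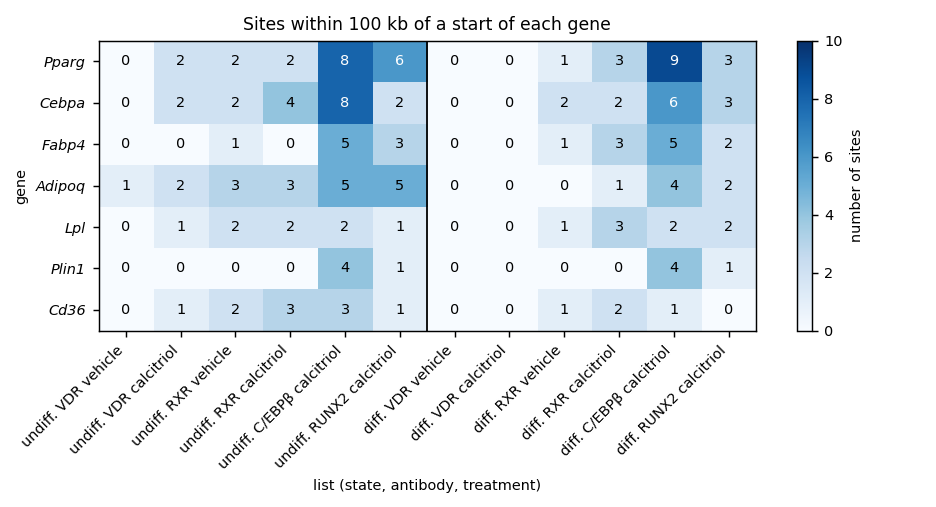
Number of sites within 100 kb of a start of each gene (vertical axis) in each of the 12 factor lists (horizontal axis), with undifferentiated cells left and differentiated cells right of the line. C/EBPβ has the highest counts, up to 9 at Pparg, and the 2 VDR columns of differentiated cells are at 0 for all 7 genes.

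Pparg (ENSMUSG00000000440.6) lies at chr6:115311239-115440419 on the plus strand of mm9, has 2 annotated starts 60.8 kb apart and is the only protein-coding gene with a start in its window of 261 kb. Its 36 sites over the 12 lists were the most of the 7 genes, and they formed 19 elements, of which 9 held C/EBPβ and no other factor. All 8 C/EBPβ elements of undifferentiated cells were called again, with 1 more in differentiated cells. The element at 44.2 kb upstream was in 7 lists. It held VDR with calcitriol, RXR with vehicle and with calcitriol, and RUNX2 in undifferentiated cells, then RXR with both treatments and RUNX2 in differentiated cells. C/EBPβ sites lay beside it, at 45.2 and 47.9 kb upstream, in both states. The second element with VDR lay in an exon of Pparg, 101.9 kb downstream of the first start, with RXR and RUNX2, and was empty in differentiated cells. A C/EBPβ site 101.7 kb downstream, which it did not overlap, was called in both states. RUNX2 was called again at 1 of the 6 Pparg elements where it had been.

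Cebpa (ENSMUSG00000034957.9, chr7:35904312-35906945, plus strand) has 1 start and shares its window of 200 kb with the starts of Cebpg, Lrp3, Pepd and Slc7a10. Of its 14 elements, 6 had Cebpa as the nearest start. The element 166 bp upstream of that start was in 9 of the 12 lists, and its factors were VDR, RXR, C/EBPβ and RUNX2 in undifferentiated cells, and RXR, C/EBPβ and RUNX2 in differentiated cells. It is printed above with no capitals, since none of the 4 motifs was found in that stretch. The element 14.7 kb downstream was in 2 lists, VDR and RXR of undifferentiated cells with calcitriol, and holds 2 DR3 matches, which begin at positions 46 and 86 of the printed sequence. A further C/EBPβ site lay in the exon of Cebpa, 2.1 kb from the start, in both states. The sites at 62.8, 63.1 and 63.8 kb upstream lay 33, 262 and 491 bp from an annotated start of Cebpg, not all from the same one.

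Fabp4 (ENSMUSG00000062515.2, chr3:10204347-10208576, minus strand) had 9 elements and no VDR site in any list. The nearest to its start was a C/EBPβ site 5.1 kb upstream, called in undifferentiated and not in differentiated cells, and it was the only element for which Fabp4 was the nearest gene. The element 49.8 kb upstream, in an intron of Fabp12, was called in differentiated cells with RXR, C/EBPβ and RUNX2 and in no undifferentiated list. It holds a DR3 match, although VDR was not called there. A second element, 83.0 kb downstream, held RUNX2 in undifferentiated cells and RXR, C/EBPβ and RUNX2 after differentiation. RXR sites with calcitriol numbered 0 in undifferentiated and 3 in differentiated cells. Besides those in these elements, the remaining site lay 86.0 kb upstream, where RXR was called with vehicle in both states.

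Adipoq (ENSMUSG00000022878.5, chr16:23146609-23158101, plus strand) shares its window with 5 other genes, and 7 of its 11 elements lay within 1 kb of the start of another gene. The VDR sites were of this kind: 1 lay 38 bp from a start of Eif4a2, 39.0 kb upstream of Adipoq, and 1 lay 590 bp from a start of St6gal1. The element nearest to Adipoq itself lay 2.0 kb upstream and carried RXR with calcitriol, C/EBPβ and RUNX2 in undifferentiated cells. C/EBPβ and RUNX2 were called there again in differentiated cells, and its sequence holds 3 RUNX matches and 1 C/EBP match. A C/EBPβ site 9.8 kb upstream was also called in both states.

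Lpl (ENSMUSG00000015568.8, chr8:71404390-71431347, plus strand; 4 starts) had 3 elements, each called in both states. The element 73.6 kb downstream, beyond the 3′ end of the gene and with Lpl as its nearest start, was in 7 lists. RXR with vehicle, RXR with calcitriol and C/EBPβ were called there in both states, and RUNX2 in differentiated cells. At a C/EBPβ site 95.5 kb downstream, RXR was called in differentiated cells with calcitriol and in no other list. The VDR site of the Lpl window lay 77 bp from the start of Ints10, a subunit gene of the Integrator complex, 86.6 kb upstream of Lpl.

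Plin1 (ENSMUSG00000030546.7, chr7:86866050-86877662, minus strand) had 5 elements and neither VDR nor RXR in any list. Its 4 C/EBPβ elements were called in both states. RUNX2 was called at 71.8 kb upstream in undifferentiated cells and at 15.2 kb upstream in differentiated cells. For all 5 the nearest start belonged to another gene. Cd36 (ENSMUSG00000002944.8, chr5:17287508-17394777, minus strand; 3 starts) had 4 elements, all beyond its 3′ end and all nearest to Sema3c. That at 149.0 kb from the first start, 96.0 kb from the last, held all 4 factors in undifferentiated cells and RXR alone in differentiated cells. That at 142.3 kb held RXR in both states and has the only DR1 match among the 65 elements.

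**Figure D2:**
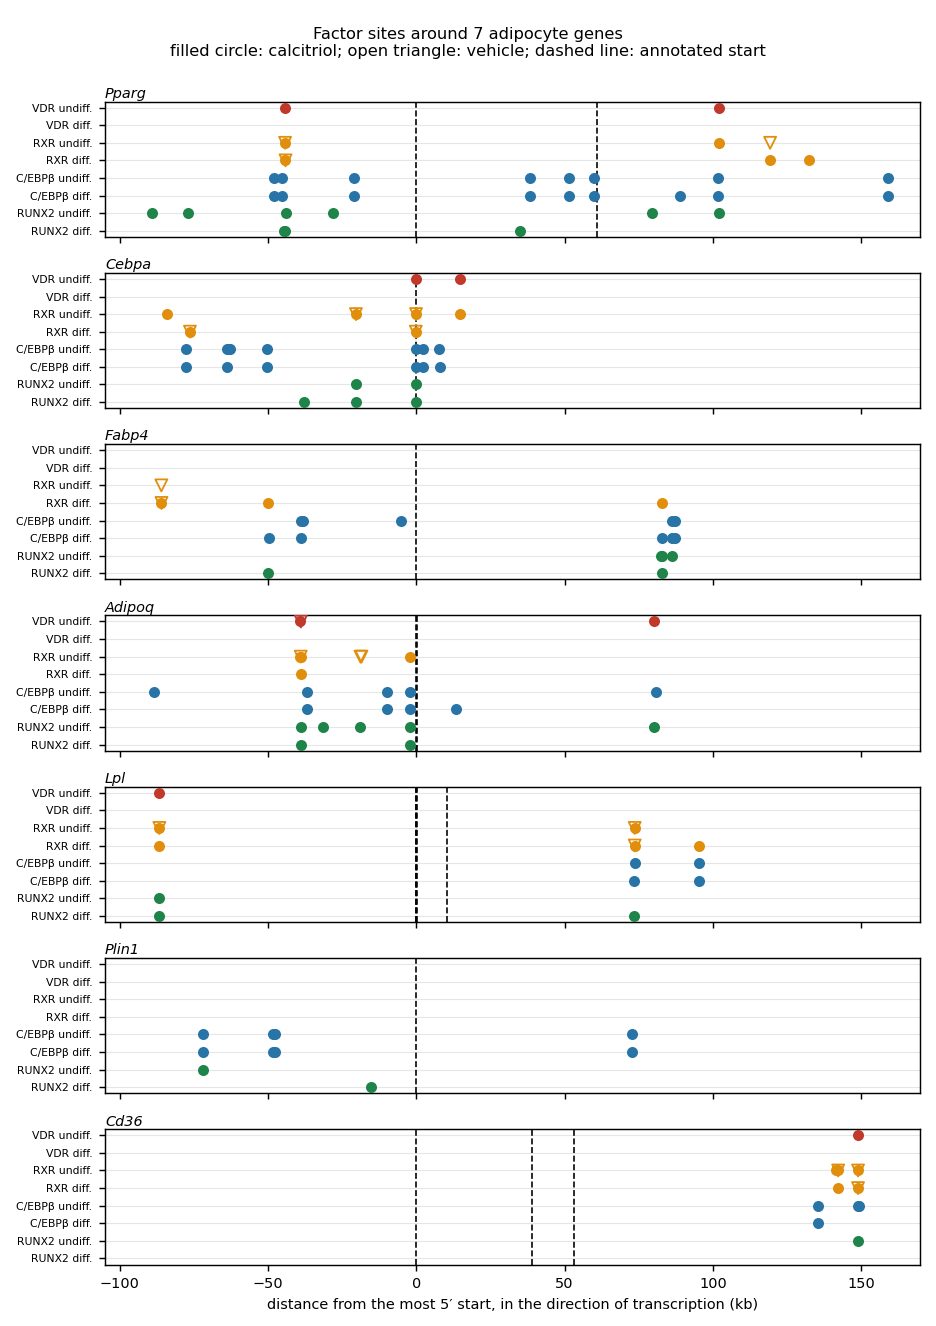
Position of every factor site relative to the most 5′ start of each gene, in kb along the direction of transcription (horizontal axis), by factor and state (vertical axis). Circles are sites with calcitriol, triangles sites with vehicle and dashed lines annotated starts; the VDR circles, in undifferentiated cells only, include 1 at 44.2 kb upstream of Pparg above RXR and RUNX2 symbols.

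Over the 65 elements, 35 (53.8%, 41 to 66.3) carried a factor in both states, 20 in undifferentiated and 10 in differentiated cells alone, beside 48.9%, 32.2% and 18.9% of the 36609 elements of the whole genome. C/EBPβ alone was called at 30 (46.2%, 33.7 to 59), beside 41.6%. VDR was at 8 (12.3%, 5.47 to 22.8), beside 19.5%, and RXR at 22 (33.8%, 22.6 to 46.6), beside 34.9%. Each of these intervals contains the genome-wide share. Between the states, C/EBPβ was found again at 26 of 34 elements, with 8 lost and 5 gained. RUNX2 was found again at 7 of 19 (12 lost, 6 gained) and RXR, over both treatments, at 9 of 17 (8 lost, 5 gained). The same shares over the elements of the whole genome are not given here, so these counts per factor have no comparison. Of the 65, 26 lay in introns, 4 in exons and 35 between genes, and 26 had a start of the named gene as the nearest.

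H3K4me1 and H4K5ac were found at the starts of the 7 genes at shares near those of all genes, and H3K4me3 was found at the start of 1 of them. At the starts (within 1 kb), H3K4me1 was present at 5 of the 7 genes in undifferentiated cells (56.9% of all genes) and 4 in differentiated cells (58.8%). Pparg, Cebpa, Adipoq and Lpl had it in both states and Fabp4 in undifferentiated cells. H4K5ac was present at 4 starts (55.6%), those of Pparg, Cebpa, Fabp4 and Adipoq, and after differentiation at 5 (54.7%), with Lpl added. H3K9ac was present at the Cebpa start alone in both states, where 50.6% and 52.6% of all genes had it. H3K4me3 was present at no start in undifferentiated cells (35.9% of all genes) and at 1 in differentiated cells (43.3%), that of Cebpa, in a region 1775 bp wide. Without the lowest 25% of the H3K4me3 regions by deposited score, that count was 0. The nearest H3K4me3 to a Pparg start lay 179.8 kb away in undifferentiated and 122.3 kb away in differentiated cells.

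H3K36me3, the mark of transcribed gene bodies, covered at least 50% of the body of 1 of the 7 genes in undifferentiated cells (41.4% of all genes) and of none in differentiated cells (39.3%). The gene was Cebpa, with 65.8% of its body covered by a region 2.92 kb wide. In differentiated cells the nearest H3K36me3 region lay 63.4 kb from the Cebpa start. Of the Pparg body, 1.25% was covered in undifferentiated cells. At Cebpa, then, the H3K36me3 call was made in undifferentiated cells and the H3K4me3 call at the start in differentiated cells.

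Across the whole windows, H4K5ac covered 84.1% of that of Pparg in undifferentiated cells and 72.9% in differentiated cells, and 0.284% and 0.441% of all genes reached as much. The other windows ranged from 10.5% (Lpl) to 43.6% (Fabp4) in undifferentiated and from 12.3% (Cd36) to 44.5% (Cebpa) in differentiated cells. The median of the 7 genes was 19.4% and then 36.2%, beside 14.2% and 11.3% over all genes. The difference between these 2 medians comes with Lpl, at 10.5% and 36.2%, while the windows of Pparg, Fabp4, Plin1 and Cd36 had less coverage in differentiated cells. Summed over the 7 windows, coverage was 33.9% and 35.3%. H3K4me1 covered 64.8% of the Pparg window, 43.3% of that of Cebpa and 36.9% of that of Fabp4 in undifferentiated cells, and 55.2%, 50% and 29.4% in differentiated cells. Its median was 28.2% and 26.1%, beside 17.7% and 17.5% over all genes. The label of the acetylation antibody is H4K5ac, while the protocol text names H3K5Ac, and the label was followed.

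H3K9ac covered more of each of the 7 windows in differentiated than in undifferentiated cells. In undifferentiated and then differentiated cells it covered, for example, 12.7% and 16.3% for Cebpa, 4.15% and 8.02% for Pparg and 0% and 6.19% for Fabp4. The share of all genes whose coverage rose is not given here, so this count has no comparison. The median H3K9ac coverage was 4.15% and 7.24%, beside 4.19% and 5.27% over all genes. At the factor elements, H3K9ac lay over 24 of 65 (36.9%, 25.3 to 49.8) in undifferentiated and 40 (61.5%, 48.6 to 73.3) in differentiated cells, beside 45.1% and 57% of all elements. The H3K9ac list itself was longer in differentiated cells, with 22874 regions against 17197, and its part in this was not tested. Fabp4 elements had H3K9ac at 0 of 9 and then 6 of 9, and Cd36 elements at 0 of 4 and then 3 of 4. H4K5ac lay over 60 and 59 of the 65 elements and H3K4me1 over 63 and 62, beside 85.7% to 93% of all elements. H3K36me3 lay over 10 (15.4%, 7.63 to 26.5) in undifferentiated cells, an interval below the 28.6% of all elements. In differentiated cells it lay over 7 (10.8%, 4.44 to 20.9), beside 20.8%. Of the 10, 6 were in the Cebpa window and 3 in that of Adipoq. The interval treats elements of the same window as independent, so the difference from 28.6% was not tested.

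**Figure D3:**
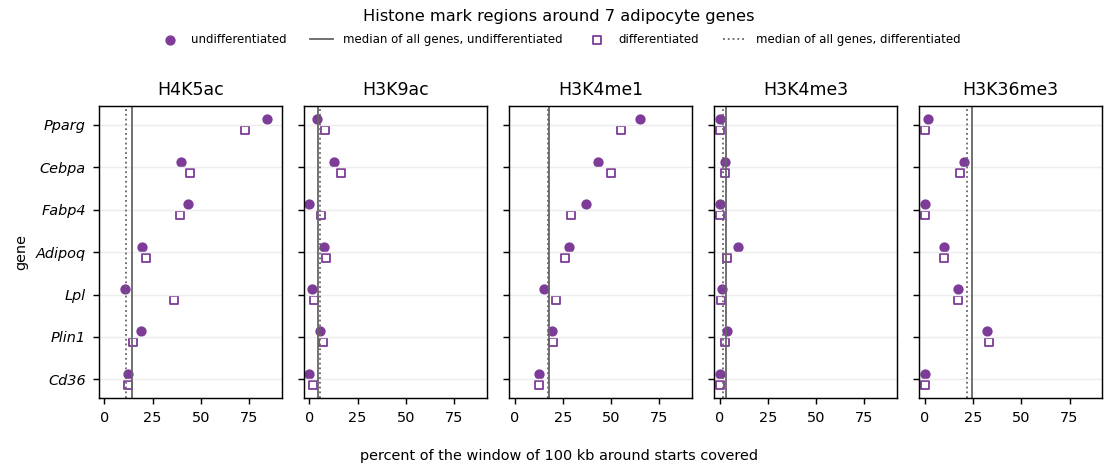
Percent of the window around each gene covered by regions of 5 histone marks (horizontal axes), by gene (vertical axis), in undifferentiated (filled circles) and differentiated cells (open squares), with lines at the median of all genes in each state. Pparg stands highest for H4K5ac, at 84.1% and 72.9%, and for H3K4me1, while 3 genes, Pparg, Fabp4 and Cd36, are at 0% for H3K4me3 in both states.

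Each factor's motif was looked for at its own sites near the 7 genes. The C/EBP motif was at 22 of 35 undifferentiated C/EBPβ sites (62.9%, 44.9 to 78.5), beside 42.6% of the whole list and 8.58% of flanking stretches 2 kb away. In differentiated cells it was at 18 of 31 (58.1%, 39.1 to 75.5), beside 44.6% and 8.37%. The first of these intervals lies above the share of the list, the second contains it. Both treat sites of the same window as independent. The RUNX motif was at 10 of 19 undifferentiated RUNX2 sites (52.6%, 28.9 to 75.6), beside 54.5% of the list and 15.7% of flanks, and at 10 of 13 differentiated sites (76.9%, 46.2 to 95), beside 58.7% and 15.5%. DR3 was at 1 of 8 VDR sites (12.5%, 0.316 to 52.7), beside 14.8% of the list and 1.18% of flanks, and DR1 at 1 of 14 RXR sites with calcitriol in each state, beside 2.98% and 3.02% of the lists.

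The pattern over the 12 factor lists most like that of Pparg, which had the most sites, was that of Wfikkn2, with a sum of absolute differences of 4 sites over the 12 counts, followed by Bnc2 and Dkk3 at 6 each. At or under 6 there were 7 genes. Wfikkn2 had 8 and 9 C/EBPβ sites, as did Pparg, and 3 RUNX2 sites in each state, where Pparg had 6 and 3.

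Of 52 further adipocyte genes, 51 were in the annotation. In undifferentiated cells with calcitriol VDR was near 33 of them, RXR near 34, C/EBPβ near 43 and RUNX2 near 41. In differentiated cells the numbers were 7, 33, 45 and 38. The shares of all genes were 43.9% and then 43.8% for RXR, 65.9% and 61.1% for C/EBPβ, and 59.6% and 46.5% for RUNX2. Over all genes, too, VDR was the factor whose share fell most, from 40.9% to 12.1%, with its list going from 7007 to 873 sites. By role, VDR was near 10 of 15 regulators, 14 of 20 genes of lipid handling, 6 of 8 genes of secreted and other proteins and 3 of 8 inhibitors in undifferentiated cells, and near 2, 4, 1 and 0 of them in differentiated cells. H3K4me3 was within 1 kb of the start of 20 and then 27 of the 51, beside 35.9% and 43.3% of all genes. The highest counts of undifferentiated VDR sites were 11 near Rxra, which encodes an RXR itself, and 9 near Cebpb, which encodes C/EBPβ, against 0 and 1 in differentiated cells. Ebf1 and Foxc2, a regulator and an inhibitor, had 4 each, and Egr2, Stat5a and Wnt10b 3 each. In undifferentiated and then differentiated cells, VDR was near 11 and 3 of the 12 bone genes and 5 and 1 of the 10 chondrocyte genes. The bone genes had a median of 7 C/EBPβ and 6 RUNX2 sites in undifferentiated cells, beside 1 and 1 over all genes.

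**Figure D4:**
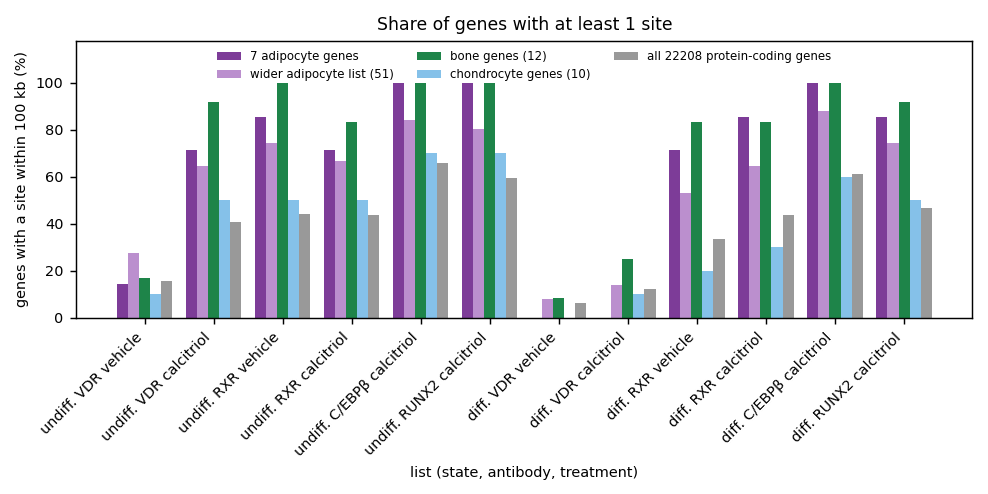
Percent of genes with at least 1 site within 100 kb of a start (vertical axis, from 0) in each of the 12 factor lists (horizontal axis), for the 7 adipocyte genes, 51 further adipocyte genes, 12 bone genes, 10 chondrocyte genes and all 22208 protein-coding genes. Bars for C/EBPβ are at 100% for the 7 genes and the bone genes in both states, and no bar of the 7 genes rises above 0 for VDR in differentiated cells.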

How the data were processed

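The deposited files are region lists with chromosome, start, end, name and score, on mm9. Per the submitters' processing notes, Bowtie and HOMER were used, whose versions and settings are not given in these sources. The score deposited by the authors is 0 throughout the 12 factor lists, and its meaning in the 10 histone lists is not given, so its sole use was an alternative that dropped the lowest 25% of a list. Per the region names in the files, 70.4% to 99.6% of the regions of a list were merged from 2 peaks.

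Regions on chromosomes 1 to 19 and X were placed on the NCBIM37 (mm9) sequence with the GENCODE vM1 annotation, using Python 3.11.15, pandas 2.3.3 and numpy 2.4.6, and 96 regions on other chromosomes were left out. A region belonged to a gene when its centre lay within 100 kb of an annotated start. Sites overlapped when they shared at least 1 bp. Shares carry exact Clopper-Pearson 95% intervals (scipy 1.17.1), which cover counting only; a count of 0 allows up to 3 of the total. The counting steps were tested on simulated lists. No test across samples was made, since each group has 1 list, and the precision set by sequencing depth is unknown.

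The 7 genes and the gene lists were chosen with earlier results of these data known, and support nothing independently. Genes named beyond the 7 included the 6 of the further adipocyte list with the most VDR sites in undifferentiated cells with calcitriol. Ties went by symbol, so that Wnt10b, which tied with the last of them, was added after its value was seen. Also named were the 3 genes with the pattern most like Pparg and no start within 200 kb of it. The neighbours named had starts nearest to a site or in the Cebpa window. Cebpd was the listed gene without an entry. Alternatives were a window of 50 or 200 kb, the nearest start alone, 1 start per gene, regions merged from exactly 2 peaks, an overlap of over 50% of a site, centres within 500 bp, 250 bp from a start and the lowest histone scores left out.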

Additional observations from a re-analysis of the deposited data

Results flagged for a closer look

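The count of RXR sites near Fabp4 moved in opposite directions with calcitriol in the undifferentiated and the differentiated state. In undifferentiated cells it was 1 with vehicle and 0 with calcitriol, a difference of -1, and in differentiated cells it was 1 and 3, a difference of 2. Each count comes from 1 list, and the difference between the states was not tested. The whole RXR list held 7834 sites with vehicle and 7591 with calcitriol in undifferentiated cells, and 4815 and 8126 in differentiated cells. The part of these lengths in the Fabp4 counts was not tested. The single undifferentiated site, 86.0 kb upstream of Fabp4 in an intron of Fabp12, was called in differentiated cells with both treatments.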

How the results depend on the processing

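Over 18 results, 90 recalculations were made, of which 66 stayed within 1.5 times a count or within the interval of a share and 24 moved. No paired analysis was possible because each group has 1 list and no replicate numbers. With a window of 50 kb, the sites near the 7 genes numbered 18 for C/EBPβ in undifferentiated and 19 in differentiated cells, 10 for RUNX2 and 8 for RXR in undifferentiated cells, 4 for RXR in differentiated cells and 5 for VDR, of which 100% had RXR, and VDR was near 3 genes. With a window of 200 kb there were 13 VDR sites in undifferentiated and 50 C/EBPβ sites in differentiated cells. Counting a site only for the gene with the nearest start left 14 and 15 C/EBPβ sites, 7 and 7 RUNX2 sites and 7 and 5 RXR sites in undifferentiated and differentiated cells. It also left 4 VDR sites, of which 100% had RXR and 100% were absent with vehicle, VDR near 2 genes, and C/EBPβ near 4 genes in differentiated cells. The percentage of VDR sites absent with vehicle was also 100% with regions merged from exactly 2 peaks and with an overlap of over 50% of a site. Without the lowest 25% of histone regions by score, H3K4me3 was at 0 of the 7 starts in differentiated cells, so the call at Cebpa rests on a region of low score. By the rule above, no value moved with 1 start per gene, centres within 500 bp or 250 bp from a start. The VDR count of 0 in differentiated cells was 0 in each recalculation made of it. The windows of Cebpa, Fabp4, Adipoq, Lpl, Plin1 and Cd36 hold other genes, to which many of the sites may belong, and the lists give neither depth nor the spread between cultures.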
